A study of Gallus gallus with 6 samples.

Results

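The proteasome genes of the embryonic chick brain were described in 37 genes, out of 13008 chicken genes that the array measured by a probe set of their own. The members were every gene whose symbol begins with PSMA, PSMB, PSMC, PSMD, PSME, PSMF or PSMG and that is the only gene of at least 1 probe set. They had 58 such probe sets among 37693 chicken probe sets, and each gene was represented by its brightest. Each pool held brains of 5 to 8 Gallus gallus embryos of 1 sex, at stage 29 (6 to 6.5 days of incubation), with sex known from a genetic assay. The 6 arrays held 3 female and 3 male pools, with no treatment or genotype beside sex. A strain is not given in the sources used here, and a pool averages the embryos and the cell types in it.

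The proteasome is the protease that degrades proteins tagged with ubiquitin, and every cell depends on it. Its barrel-shaped core particle is made of outer rings of alpha subunits (PSMA genes) and inner rings of beta subunits (PSMB genes), some of which cut proteins. A regulatory particle caps the barrel. The base of the cap, with ATPases (PSMC genes), unfolds the substrate, and the lid (most PSMD genes) removes ubiquitin. Other members help to assemble the particles (PSMG genes and a few PSMD genes), open the core (PSME genes) or inhibit it (PSMF1). In the developing brain, protein turnover by this route is known for its part in progenitor division and axon growth. The comparison asks whether transcripts of its parts differ between female and male brains.

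The 37 members comprised 7 alpha ring and 6 beta ring genes, 5 ATPases and 2 scaffold genes of the base, 6 lid genes, 3 chaperones of the base, 4 chaperones of the core, 2 activators, 1 inhibitor, and PSMC3IP. PSMC3IP is named for binding the ATPase PSMC3 and is known in mammals as a factor of meiotic recombination, not a subunit, so it is described apart. By the RefSeq annotation of GRCg7b the genes lay on 20 chromosomes, none of them the Z or the W. The span given with a gene runs from its start to its end in that annotation. PSMD4, PSMD11 and PSME1 had no probe set of their own and are not members. Probe sets that PSMD4 shares with another gene are described apart, under other observations. Other subunits are not among the members either, such as PSMB6 of the beta ring, PSMC4 of the ATPases and PSMD8 of the lid. The roles are therefore not complete.

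Values are log2 signals, and a difference of 1 is a factor of 2. All 37 genes were above the background level in every pool. Their mean signals ran from 6.52 (PSMB5) to 11.85 (PSMC6), while the 95th percentile of viral probe sets on the same arrays, which are not aimed at chicken transcripts, was 4.21. The median chicken probe set had a signal of 4.91. Signals of different genes depend on their probes and are not ranked here. As a check on the labels, the W-linked gene HINTW had signals of 13.09 to 13.31 in female pools and 4.63 to 5.96 in male pools. Over all chicken probe sets Pearson's r between arrays was 0.988 to 0.995. The 8 neuron markers had mean signals from 7.32 (SYT1) to 12.67 (STMN2), with TUBB3 at 12.02. The 7 progenitor markers ran from 5.77 (SOX2) to 12.63 (VIM). Of 5 liver markers 4 had mean signals under the viral 95th percentile, the exception being TF (transferrin), and all 5 skeletal muscle markers lay under the chicken median.

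No proteasome gene passed the test between the sexes, and most had a slightly lower mean in female pools. Female minus male differences were below 0 for 32 of 37 genes (86.5%), against 54.5% of all 13008 genes. They ran from -0.31 to 0.16 with a median of -0.10, a female level of 0.935 times the male level, beside a median of -0.02 over all genes. In pooled brains fewer cells of a type and less RNA per cell cannot be told apart. In limma with Benjamini-Hochberg adjustment over 37693 chicken probe sets, 0 of the 37 genes reached an adjusted p under 0.05 (smallest 0.199), while 0.554% of chicken probe sets did (0.443% lower and 0.111% higher in female pools), and 0.923% of genes. At an unadjusted p under 0.05 there were 7 members (18.9%), against 12.7% of all genes. Of the 37 members 6 had such a p and a lower female mean, against 7.2% of all genes. With a higher female mean there was 1 of the 37, against 5.45% of all genes. These background shares include Z-linked genes, and no member is Z-linked. Of the 12207 autosomal genes 1349 had an unadjusted p under 0.05, 667 of them lower in female pools. Among autosomal genes alone 0.0492% passed the adjusted threshold. With limma's variance moderated by trend and robustly, 1 member (PSMB3) passed.

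**Figure D1:**
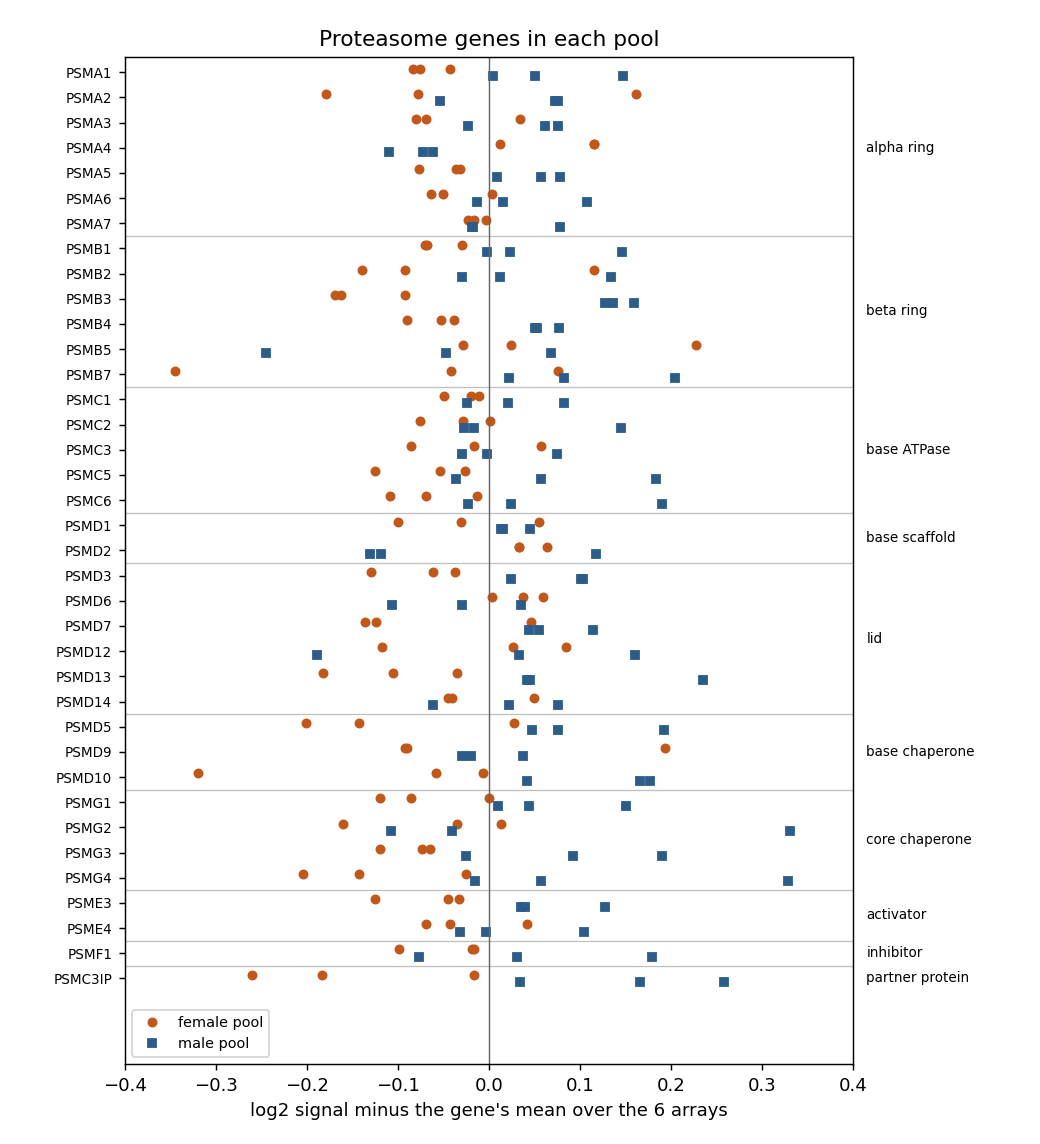
Log2 signal of each of the 37 proteasome genes in each pool, as the deviation from that gene's mean over the 6 arrays. Circles are female pools and squares male pools (3 each), rows are grouped by role. In PSMB3 and 13 other genes all circles lie left of all squares, and in PSMA4 all circles lie right of them.

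The spread between pools was small, and so were the errors. In 14 of 37 genes (37.8%) every female pool lay below every male pool, against 12% of all genes and 11.3% of the autosomal genes whose signal reached the chicken median. In 1 gene (PSMA4) every female pool lay above every male pool, against 7.06% of all genes and 8.67% of those brighter autosomal genes. The standard errors of the differences were 0.07 to 0.12. For 36 of the 37 genes the 95% interval of the difference lay within 0.5 log2 units of 0 on either side, and only that of PSMC3IP reached further, to -0.53. In 23 of the 37 genes the female mean was between 0.9 and 1 times the male mean, a difference that single genes with these errors could not show.

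**Figure D2:**
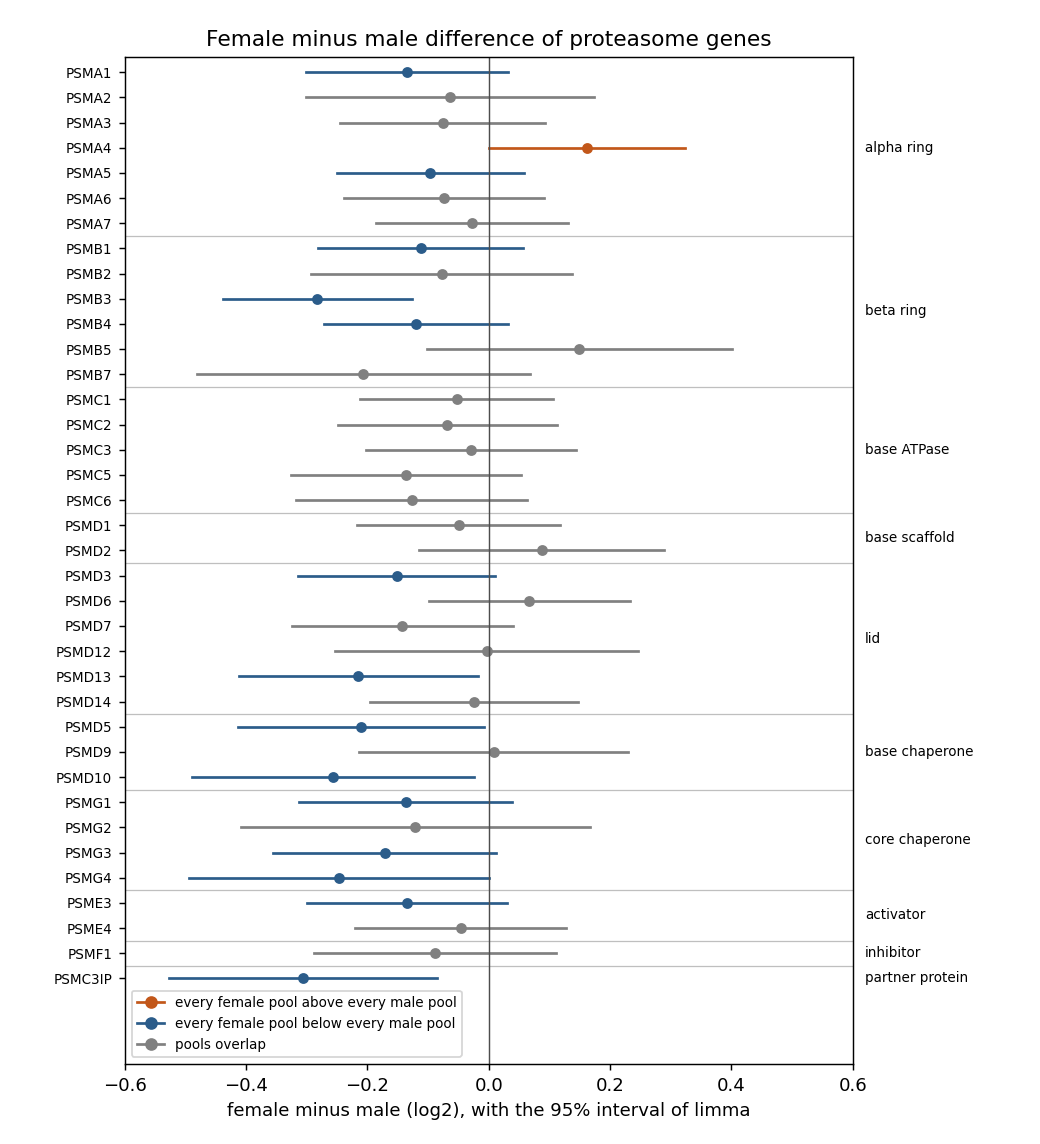
Female minus male difference of each proteasome gene (points) with limma's 95% interval (lines), in log2 units, by role. Orange marks the gene with every female pool above every male pool, blue the 14 genes with every female pool below, and grey the genes whose pools overlap. Most points lie left of 0, between -0.31 and 0.16, and most intervals cross 0.

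Alpha ring genes, whose products form the gate of the core, had small differences in both directions. Of 7, 6 had a lower female mean, and the median was -0.07. PSMA1 (chromosome 5, span 25.1 kb) had signals of 10.99, 11.03 and 11.00 in female pools 1, 2 and 3, against 11.22, 11.08 and 11.12 in male pools 1, 2 and 3. Every female pool lay below every male pool, the difference was -0.13 (SE 0.07, limma adjusted p = 0.569), and it did not pass. PSMA4 (chromosome 10, span 5.11 kb) went the other way, with 11.15, 11.05 and 11.15 in female pools 1, 2 and 3, against 10.96, 10.97 and 10.93 in male pools 1, 2 and 3. Its female pools were all above the male pools, at 0.16 (SE 0.07, limma adjusted p = 0.478), and PSMA4 was the only member with that order. PSMA5 (difference -0.10) also had pools that did not overlap. PSMA2, PSMA3, PSMA6 and PSMA7 lay between -0.08 and -0.03 with overlapping pools. PSMA7 varied least of all members, with signals of 11.52 to 11.54 in female pools and 11.53 to 11.62 in male pools.

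The beta ring holds the cutting sites of the protease and the gene with the smallest p of all members. PSMB3 (chromosome 27, span 2.79 kb), a structural beta subunit that does not cut, had 11.46, 11.45 and 11.53 in female pools 1, 2 and 3, against 11.75, 11.78 and 11.76 in male pools 1, 2 and 3. The sexes were separated by more than the spread within either, with means of 11.48 ± 0.04 in female pools and 11.77 ± 0.02 in male pools (SD, n = 3 each). The difference was -0.28 (SE 0.07, limma adjusted p = 0.199), a female level of 0.822 times the male level. Its adjusted p was 0.0376 with trend and robust moderation and between 0.305 and 0.514 when single pools were left out. PSMB4 (chromosome 25, span 2.29 kb), another structural beta subunit, had 11.46, 11.43 and 11.48 in female pools 1, 2 and 3, against 11.59, 11.57 and 11.57 in male pools 1, 2 and 3. Its groups did not overlap, and the difference of -0.12 (SE 0.07, limma adjusted p = 0.577) did not pass. PSMB1 (-0.11) also had every female pool below every male pool, and PSMB2 gave -0.08 with overlapping pools.

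Neither of the measured catalytic subunits passed. PSMB5, which carries the chymotrypsin-like activity, had 6.75, 6.55 and 6.50 in female pools 1, 2 and 3, against 6.59, 6.28 and 6.48 in male pools 1, 2 and 3, a difference of 0.15 (SE 0.11, limma adjusted p = 0.685). Its other probe set, with a mean signal of 5.73, gave -0.01 (SE 0.09). PSMB7, which carries the trypsin-like activity, had 11.23, 10.92 and 11.34 in female pools 1, 2 and 3, against 11.35, 11.47 and 11.29 in male pools 1, 2 and 3, a difference of -0.21 (SE 0.12, limma adjusted p = 0.596). In both genes the pools overlapped. Female pool 2 was the low one for PSMB7, which gave -0.09 without it. PSMB5 gave 0.07 without female pool 1 and 0.06 without male pool 2.

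In the regulatory particle the ATPases of the base had small differences. All 5 had a lower female mean, from -0.03 (PSMC3) to -0.14 (PSMC5), and the pools overlapped in every one. PSMC6, the member with the brightest probe set, had 11.84, 11.78 and 11.74 in female pools 1, 2 and 3, against 11.87, 12.04 and 11.83 in male pools 1, 2 and 3. Male pool 2 was the highest, the other pools lay close together, and the difference was -0.13 (SE 0.08, limma adjusted p = 0.641), or -0.06 without that pool. PSMC2 gave -0.07 (SE 0.08) and PSMC1 -0.05 (SE 0.07). Of the scaffold genes, on which ubiquitin receptors dock, PSMD1 gave -0.05 (SE 0.07) and PSMD2 0.09 (SE 0.09). None of these 7 had an unadjusted p under 0.05.

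Of 6 lid genes 5 had a lower female mean, and 0 passed. PSMD3 (chromosome 27, span 3.74 kb), a scaffold subunit of the lid, had 10.32, 10.23 and 10.30 in female pools 1, 2 and 3, against 10.38, 10.46 and 10.46 in male pools 1, 2 and 3. The groups did not overlap, and the difference was -0.15 (SE 0.07, limma adjusted p = 0.505). PSMD13 (chromosome 5, span 8.85 kb), also a lid subunit, had 7.76, 7.69 and 7.61 in female pools 1, 2 and 3, against 7.84, 7.84 and 8.03 in male pools 1, 2 and 3. Its female pools were likewise all below the male pools and the difference was -0.22 (SE 0.08, limma adjusted p = 0.439), but its other probe sets, with mean signals of 6.05, 4.55 and 2.92, gave 0.15, 0.00 and -0.07. Averaged over its probe sets PSMD13 gave -0.03. PSMD14, the enzyme that cuts ubiquitin off the substrate, gave -0.02 (SE 0.07). Its partner PSMD7 gave -0.14 (SE 0.08), with 1 female pool inside the male range. PSMD6 (0.07) had a higher female mean, and PSMD12 gave -0.0035 (SE 0.11).

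The assembly chaperones among the members had the lowest medians among the roles with at least 3 genes. The assembly factor POMP is not a member by its symbol and is not counted here, and it gave -0.09 (SE 0.07). The base chaperones, which bring the ATPases together, had a median of -0.21 over 3 genes, and the core chaperones, which build the alpha ring, -0.15 over 4, all 4 with a lower female mean. The core subunits had -0.08 over 13 genes and the regulatory particle subunits -0.05 over 13. A difference between the roles was not tested.

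PSMD10 (chromosome 4, span 2.84 kb), a base chaperone also known as gankyrin, had 9.05, 8.74 and 9.00 in female pools 1, 2 and 3, against 9.22, 9.10 and 9.23 in male pools 1, 2 and 3. The pools did not overlap, with female pool 2 furthest down, and the difference was -0.26 (SE 0.10, limma adjusted p = 0.436). Without female pool 2 it was -0.16. PSMD5 (chromosome 17, span 6.72 kb), a base chaperone too, had 8.81, 8.64 and 8.58 in female pools 1, 2 and 3, against 8.86, 8.83 and 8.97 in male pools 1, 2 and 3. Its difference was -0.21 (SE 0.09, limma adjusted p = 0.461) without overlap. The other PSMD5 probe set gave -0.57 (SE 0.36), a value that rests on male pool 3, where its signal was 8.91 against 7.30 to 7.52 in the other 5 pools. Averaged over both probe sets PSMD5 gave -0.39. PSMD9, the remaining base chaperone, gave 0.01 (SE 0.10).

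Among the core chaperones, PSMG4 (chromosome 2, span 35.6 kb) had 10.72, 10.55 and 10.61 in female pools 1, 2 and 3, against 10.73, 10.81 and 11.08 in male pools 1, 2 and 3. All female pools lay below all male pools, male pool 3 was the highest, and the difference was -0.25 (SE 0.11, limma adjusted p = 0.479). Without male pool 3 it was -0.14. The other PSMG4 probe sets gave -0.29 (SE 0.10) and -0.14 (SE 0.16), the same direction. PSMG3 (chromosome 14, span 3.43 kb) had 9.38, 9.33 and 9.37 in female pools 1, 2 and 3, against 9.64, 9.54 and 9.42 in male pools 1, 2 and 3, again without overlap, and a difference of -0.17 (SE 0.08, limma adjusted p = 0.508). PSMG1 gave -0.14 (SE 0.08) without overlap, and PSMG2 -0.12 (SE 0.12), with a signal of 9.76 in male pool 3 and 9.27 to 9.44 in the other 5 pools. Without that pool PSMG2 gave 0.01.

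PSME3 (chromosome 27, span 6.71 kb), an activator found in the nucleus, had 11.00, 10.92 and 11.02 in female pools 1, 2 and 3, against 11.09, 11.18 and 11.09 in male pools 1, 2 and 3. Its pools did not overlap, and the difference was -0.14 (SE 0.07, limma adjusted p = 0.563). Its other probe sets, with mean signals of 9.79 and 4.10, gave -0.23 (SE 0.15) and -0.14 (SE 0.18) with overlapping pools. The dimmer of them lay under the viral 95th percentile. PSME4, an activator known for its part in spermatogenesis and DNA repair in mammals, gave -0.05 (SE 0.07), and the inhibitor PSMF1 gave -0.09 (SE 0.09). Both had overlapping pools. The other PSME4 probe sets, with mean signals of 7.01 and 6.48, went the other way, at 0.13 (SE 0.14) and 0.09 (SE 0.11). PSMC3IP (chromosome 27, span 2.69 kb) had 6.54, 6.62 and 6.78 in female pools 1, 2 and 3, against 6.97, 6.84 and 7.06 in male pools 1, 2 and 3. This was the largest difference among the members, -0.31 (SE 0.09, limma adjusted p = 0.328), with no overlap. Without PSMC3IP the other 36 genes had a median of -0.09, 31 of them with a lower female mean.

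Probe sets of the same gene agreed in part. Of 21 other probe sets, in 16 genes, 8 had the opposite sign to the brightest one, in 6 genes, and 3 of the 8 had mean signals under the viral 95th percentile. Another probe set reached an unadjusted p under 0.05 in PSMG4 and in PSMB1. In PSMB1 that second probe set, with a difference of 0.28 (SE 0.10), was dimmer than the same percentile (mean signal 3.25), while the bright one gave -0.11. When all probe sets of a gene were averaged, 29 of 37 genes had a lower female mean and the median difference was -0.08. Of the brightest probe sets 14 belonged to the class whose probes can match several transcripts (suffix _s_at), so their signal may hold other transcripts.

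The members moved together across pools only slightly. The mean over the 37 genes of each gene's deviation from its own mean was -0.02, -0.08 and -0.05 in female pools 1, 2 and 3, against 0.05, 0.04 and 0.05 in male pools 1, 2 and 3. All female pools were thus below all male pools, by a mean of 0.10, and female pool 1 was nearest to the male pools. The regulatory particle genes had -0.01, -0.04 and -0.05 in female pools 1, 2 and 3, against 0.02, 0.06 and 0.02 in male pools 1, 2 and 3, without overlap. The core particle genes had 0.02, -0.08 and -0.04 in female pools 1, 2 and 3, against 0.05, 0.04 and 0.02 in male pools 1, 2 and 3, where female pool 1 lay within the male range. The core chaperones, of these 3 groups the furthest apart, had -0.06, -0.11 and -0.08 in female pools 1, 2 and 3, against 0.07, 0.01 and 0.17 in male pools 1, 2 and 3. The lowest value of a gene fell in female pool 2 for 15 genes, in female pool 3 for 9 and in female pool 1 for 7, and in a male pool for the other 6. The highest fell in male pools 1, 2 and 3 for 10, 12 and 9 genes. Pearson's r between pairs of members over the 6 arrays had a median of 0.31 (666 pairs, 461 above 0), which includes the difference between the sexes. The median SD over the 6 arrays was 0.10 for the members, against 0.13 for the brighter autosomal genes. The members also had a higher median signal than those genes, 10.25 against 7.38, and the part of signal in the smaller SD was not tested.

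Cell type markers differed between the pools as well. Neuron markers (8 genes, 0 past the test, 7 with a higher female mean) had mean deviations of 0.13, 0.29 and -0.03 in female pools 1, 2 and 3, against -0.15, 0.03 and -0.26 in male pools 1, 2 and 3. Progenitor markers (7 genes, 6 with a higher female mean, of which NES passed) had 0.10, 0.08 and 0.13 in female pools 1, 2 and 3, against -0.12, -0.16 and -0.03 in male pools 1, 2 and 3. Red blood cell markers (5 globin genes, 0 past the test, all 5 with a lower female mean) had 0.21, -0.50 and -0.26 in female pools 1, 2 and 3, against 0.21, -0.09 and 0.44 in male pools 1, 2 and 3. The summed signal of the globins, on the log2 scale, was 13.85 to 14.50 in female pools and 14.20 to 14.71 in male pools, that of neuron markers 13.97 to 14.28 in female pools and 13.81 to 14.02 in male pools, and that of progenitor markers 13.85 to 13.98 in female pools and 13.77 to 13.85 in male pools. Markers of connective tissue and of endothelium had median differences of -0.01 each. Skeletal muscle markers (5 genes, 0 past the test, 3 with a lower female mean) had a median of -0.002. In 2 of them every female pool lay below every male pool: MYL1 at -0.38 (SE 0.09) and TNNI2 at -0.33 (SE 0.09). Their mean signals were 3.61, under the viral 95th percentile, and 4.53, and both were named after their values were seen. The other muscle markers had overlapping pools and differences from -0.002 to 0.13. Every female pool lay above every male pool in 2 neuron and 4 progenitor markers. Every female pool lay below every male pool in 1 progenitor and 1 red blood cell marker. Over all genes these shares were 7.06% above and 12% below. The part of the cell mixture in the proteasome difference was not tested.

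**Figure D3:**
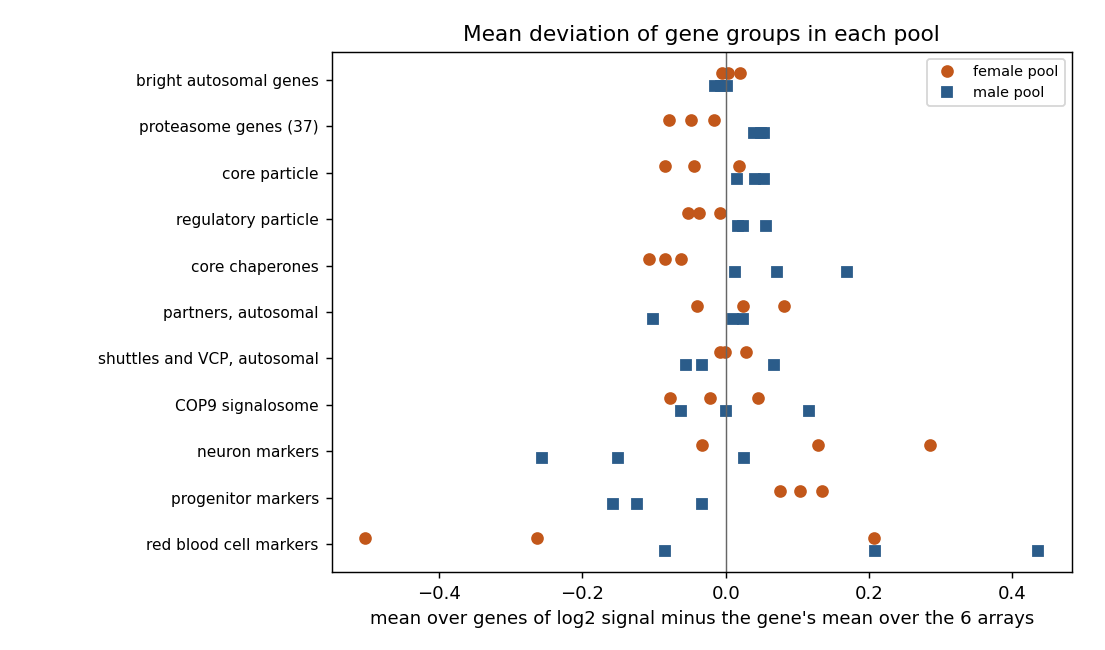
Mean deviation of gene groups in each pool, in log2 units, relative to each gene's mean over the 6 arrays; circles are female pools and squares male pools. Proteasome genes lie between -0.08 and -0.02 in female pools and between 0.04 and 0.05 in male pools, while the autosomal genes whose signal reached the chicken median stay within 0.02 of 0 and marker lists spread more widely.

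Most proteasome genes are short, and on these arrays short genes had lower female values more often than long ones. The 8688 autosomal genes whose signal reached the chicken median had a lower female mean in 51.6% of cases. Split into tertiles of 2896 genes by genomic span, they had a median difference of -0.07 in the shortest tertile (up to 9.13 kb), -0.01 in the middle tertile and 0.07 in the longest. Of the 37 members 27 fell in the shortest tertile. Among these 27 the median was -0.11, and 23 had a lower female mean, against 69.2% of all genes of that tertile. Their pools did not overlap in that direction in 12 of 27, against 19.8%. In the middle tertile 4 of 5 members had a lower female mean, against 52.1%, and 1 of 5 had no overlap, against 9.53%. In the longest tertile these were 5 of 5 members, against 33.4%, and 1 of 5, against 4.73%. The members' medians in the middle and longest tertiles were -0.07 and -0.05, each from 5 genes. By signal, 34 members fell in the brightest tertile, where the median of all genes was -0.02 and that of the members -0.09. The part of span in the difference was not tested.

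**Figure D4:**
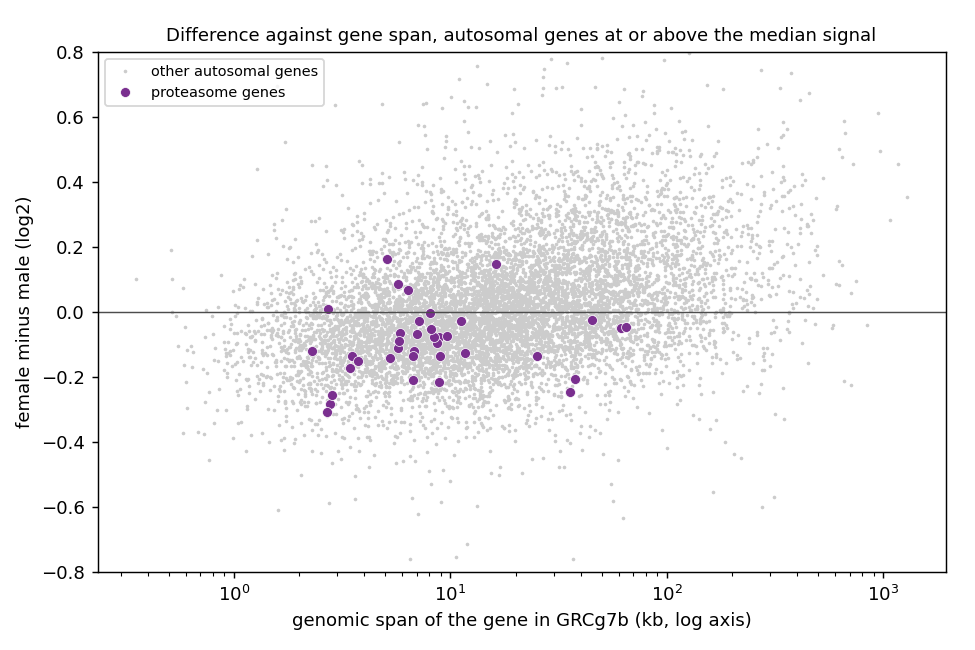
Female minus male difference (log2) against genomic span (kb, log axis) for 37 proteasome genes (large points) and other autosomal genes whose signal reached the chicken median (small points). Of the small points 20 lie beyond 0.8 on either side and are not drawn. Most large points lie below 0 and at spans under 10 kb, where small points lie below 0 more often as well.

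Genes around the proteasome did not share a direction, and the calls among them were on the Z chromosome, of which males carry a pair and females a single copy. In all, 45 genes of 5 lists were measured, of 57 listed symbols. Of the 39 autosomal ones 0 passed, 17 had a lower and 22 a higher female mean, and the median was 0.02. Of all 12207 autosomal genes 0.0492% passed and 6495 had a lower female mean, with a median of -0.01, so 0 calls in a list of this size is not particular to it. The 39 genes had a median span of 12.8 kb, against 7.02 kb for the members, and the part of span was not tested here either. Of the 6 Z-linked ones 3 fell in female pools, 0 rose, and 5 had a lower female mean, with a median of -0.45 over the 6. Of all 605 Z-linked genes measured 17.2% fell in female pools and 79.8% had a lower female mean, with a median of -0.18.

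Among 17 partners of the proteasome 2 fell and 0 rose. TXNL1, a thioredoxin-like protein that binds the lid, had 10.39, 10.28 and 10.35 in female pools 1, 2 and 3, against 11.21, 11.11 and 11.17 in male pools 1, 2 and 3, and fell by 0.82 log2 units in females (SE 0.07, limma adjusted p = 0.00318). ZFAND5, a zinc finger protein known in mice to stimulate the proteasome, had 10.29, 10.25 and 10.28 in female pools 1, 2 and 3, against 11.11, 11.00 and 11.00 in male pools 1, 2 and 3. It fell by 0.76 (SE 0.07, limma adjusted p = 0.00391). In both the sexes lay far apart, and both are on the Z. Both calls held under each alternative run in which they were read. The averaging of probe sets was not among these runs, and ZFAND5 has 5 probe sets. On autosomes the ubiquitin receptor ADRM1 gave -0.26 (SE 0.07, limma adjusted p = 0.258) with every female pool below every male pool, and AKIRIN2, which brings proteasomes into the nucleus, gave 0.25 (SE 0.08, limma adjusted p = 0.333) with every female pool above. The assembly factor POMP gave -0.09 (SE 0.07), and the proteasome-bound deubiquitinases USP14 and UCHL5 gave 0.04 (SE 0.07) and 0.12 (SE 0.13). ADRM1, AKIRIN2, POMP, USP14 and UCHL5 were named after their values were seen.

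Of 11 shuttle factors and parts of the VCP machinery, which hand ubiquitinated proteins to the proteasome, 1 fell and 0 rose. UBQLN1, a Z-linked shuttle, had 7.40, 7.46 and 7.36 in female pools 1, 2 and 3, against 8.13, 7.91 and 7.97 in male pools 1, 2 and 3. The groups were clearly apart, and it fell by 0.60 (SE 0.08, limma adjusted p = 0.0246). The call was lost without female pool 1, 2 or 3 or male pool 1 or 3 (adjusted p between 0.0487 and 0.111 over the 6 removals). It was also lost with the replicate number as a block (adjusted p = 0.0574). VCP itself, the segregase that pulls proteins out of complexes, is Z-linked too and gave -0.30 (SE 0.08, limma adjusted p = 0.261). In VCP every female pool lay below every male pool. The Z-linked shuttle RAD23B gave 0.10 (SE 0.11, limma adjusted p = 0.794) with overlapping pools. On an autosome UBQLN4 gave 0.29 (SE 0.08, limma adjusted p = 0.267), with every female pool above every male pool. VCP, RAD23B and UBQLN4 were named after their values were seen.

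Transcription regulators of proteasome genes did not pass, 0 of 7. NFE2L1, the factor that raises proteasome genes when the protease is short in mammals, gave 0.11 (SE 0.07, limma adjusted p = 0.674). Its female pools all lay above the male pools. The small MAF partner MAFG gave 0.27 (SE 0.15, limma adjusted p = 0.575) with overlapping pools. Single pools moved both genes: NFE2L1 gave 0.07 without female pool 3 and without male pool 2, and MAFG 0.18 without male pool 2 and, with male pool 3 left out, 0.42. Of ubiquitin genes and activating enzymes 2 were measured: RPS27A, which encodes ubiquitin fused to a ribosomal protein, gave -0.03 (SE 0.07), and the activating enzyme UBA6 gave -0.20 (SE 0.11). UBA6 gave -0.11 without male pool 2 and, with male pool 3 left out, -0.30, while RPS27A gave -0.016 without female pool 2 and -0.013 without male pool 3. The COP9 signalosome, which is built like the lid, had 0 of 8 genes past the test, with 5 of 8 below 0 and a median of -0.09. Its genes of smallest p were COPS7B at -0.24 (SE 0.12, limma adjusted p = 0.548) and COPS7A at -0.15 (SE 0.08, limma adjusted p = 0.563). The pools of COPS7B overlapped, and in COPS7A every female pool lay below every male pool. Without female pool 2 the differences were -0.13 for COPS7B and -0.10 for COPS7A.

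**Figure D5:**
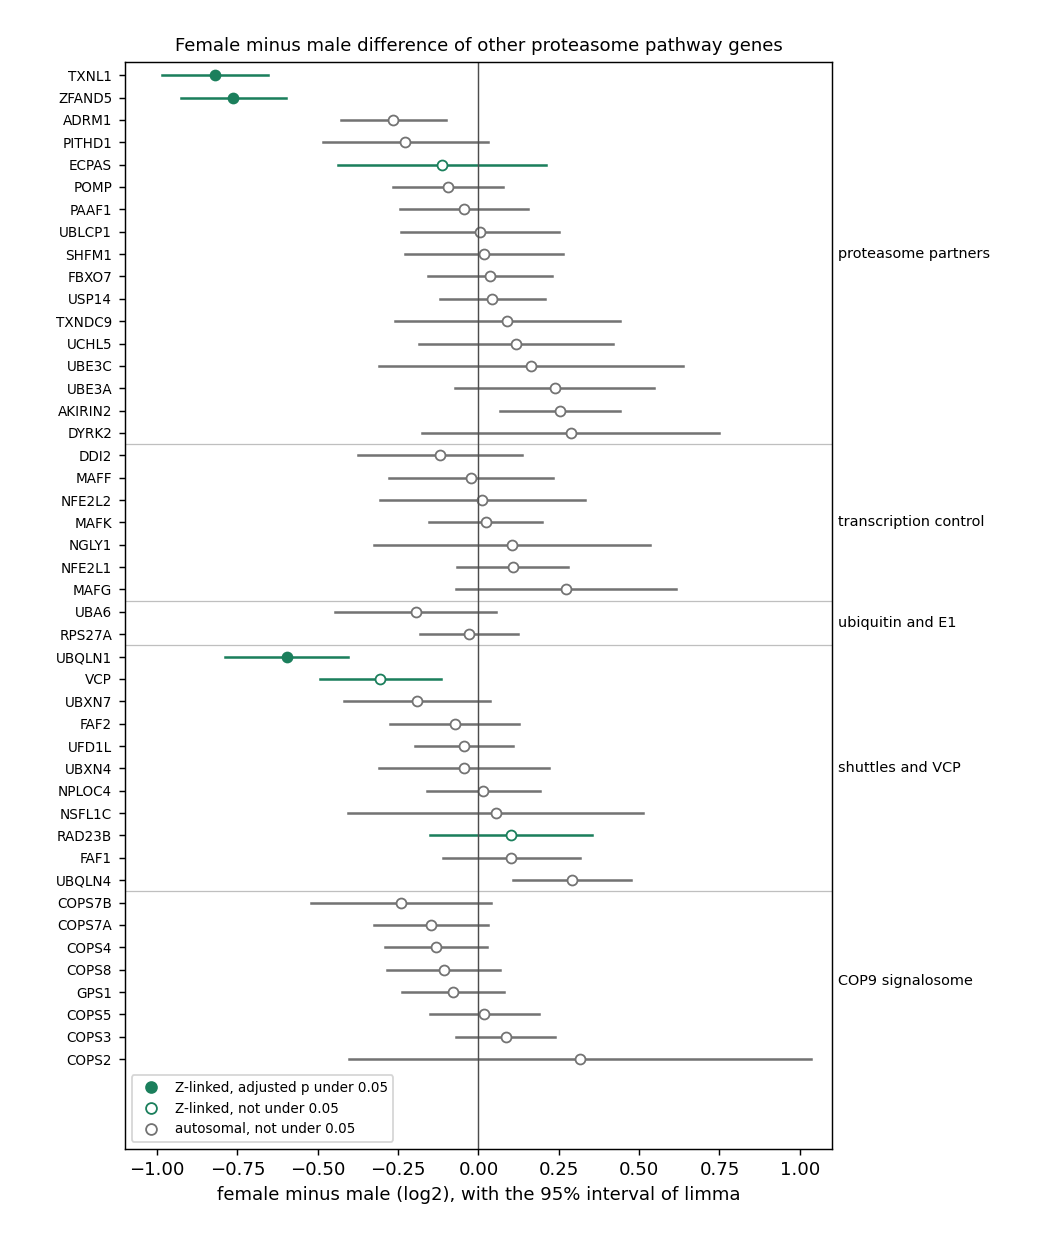
Female minus male difference (log2) of 45 other genes of the proteasome pathway, with limma's 95% intervals, by list. Green marks Z-linked genes and grey autosomal ones, and filled points passed at an adjusted p under 0.05. The filled points are TXNL1, ZFAND5 and UBQLN1, between -0.82 and -0.60.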

How the data were processed

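RNA of 6 pools was copied from oligo(dT) primers and put on 1 Affymetrix chicken array each, per the labels' protocols. The submitters' processing notes name RMA and affy, without versions, for the deposited log2 expression values. RMA gives the arrays a common distribution, so a shift shared by most genes would be removed, and array medians lay between 4.84 and 4.87. Arrays have no read depth, and their number limits the precision.

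Of 38535 probe sets, 153 controls and 689 viral and other non-chicken ones were left out, and 37693 were tested without a filter. The platform annotation named 1 gene for 27166 of them, several for 177 and none for 10350, and 26851 matched RefSeq genes of GRCg7b, which gave chromosomes and spans. The array names no build, and no coordinates are given. Female minus male differences came from limma 3.58.1 (R 4.3.3), two-sided, with sex as the only term. SE and 95% intervals are limma's, SD is over 3 pools, and p-values measure the spread between pools, not embryos. The fit was tested on simulated data with known differences, in 50 chicken probe sets for each size. It recovered 30% of differences of 0.5 log2 units, 82% of those of 1, and 100% of those of 2 or 4. Among the unchanged probe sets 8 were called. The changed probe sets were drawn at random from all chicken probe sets, so these shares are not those of bright genes such as the members. Differences as small as those of the members were not simulated, so their failure to pass does not show that they are absent.

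Members and lists were chosen with earlier results of these data known. The rule for named genes took the 12 members of smallest p and the brightest and dimmest member with their pool values, and from each pathway list the genes past the threshold or, with none, the 2 of smallest p. Figures were drawn with matplotlib 3.10.9.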

Additional observations from a re-analysis of the deposited data

How the results depend on the processing

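The count of chicken probe sets that differed between female and male pools was 209. It was 113 to 161 when single pools were left out (113 when this was female pool 2, 129 for female pool 3 and 130 for male pool 1), and 108 at an adjusted p under 0.01. With the replicate number as a block it was 245, and 0 proteasome genes passed. Same-numbered pools deviated together with r = 0.01, 0.15 and 0.32 for numbers 1, 2 and 3. Of the 6 pools 4 correlated best with their own number. The main fit did not pair the pools because the labels give sex as the only factor. These correlations do not exclude a pairing. The count of proteasome genes past the threshold was 0 under the other settings run, and 1 with trend and robust moderation, which gave 261 probe sets. For that gene, PSMB3, the smallest adjusted p elsewhere was 0.0959, in the run with probe sets averaged. PSMB3 has 1 probe set, so its own values were the same there. That run fitted and adjusted over 13008 genes in place of 37693 probe sets. The cause of these shifts was not tested, other than that fewer arrays enter when a pool is left out and fewer rows when probe sets are averaged.

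The median female minus male difference over proteasome genes was -0.12 to -0.085 when single pools were left out, with -0.12 without female pool 1, and -0.08 with probe sets averaged. Between 29 and 33 members had a lower female mean under the settings run, and 12 to 21 had no overlap in that direction; these 2 counts were added after the data had been seen. The 12 members of smallest p and 9 pathway genes named by rule kept their direction under the settings run. The averaging of probe sets was read for the members only. Among all 37 members, leaving out a pool moved the difference by over 1.5 times in 23 and changed its sign in 7 (PSMA2, PSMA7, PSMC3, PSMD9, PSMD12, PSMD14 and PSMG2), a count added after the data had been seen.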

Other observations

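The probe sets that the annotation assigns to a proteasome gene and a second gene were not members. For PSMD4, the ubiquitin receptor of the base, listed together with PIP5K1A, the probe sets with mean signals of 10.24 and 9.60 gave female minus male differences of -0.12 (SE 0.08) and -0.14 (SE 0.07). The dimmer probe sets of that pair, with mean signals of 4.76 and 4.32, gave -0.02 (SE 0.08) and -0.14 (SE 0.09). The probe set shared by PSMD6 and CCDC50 gave 0.05 (SE 0.12). That shared by PSME3 and AOC3, with a mean signal of 4.25, gave -0.17 (SE 0.08).

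Chromosome 27 held 5 members (PSMB3, PSMC3IP, PSMC5, PSMD3 and PSME3), a grouping noticed after the values were seen. All 5 had a lower female mean, from -0.31 to -0.14, and in 4 of the 5 every female pool lay below every male pool. Their spans of 2.69 to 6.71 kb put all 5 in the shortest tertile of the brighter autosomal genes. In that tertile 69.2% of genes had a lower female mean and 19.8% had every female pool below every male pool. The part of span was not tested. Over the 149 genes of this chromosome whose signal reached the chicken median, the median difference was -0.04, 61.1% had a lower female mean and in 18.8% every female pool lay below every male pool. Chromosome 5 held 7 members, from -0.22 to -0.03 with a median of -0.08, against a median of -0.01 over 582 such genes.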
